A study of Mus musculus with 4 samples.

Results

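Dense clusters of RNA polymerase II (Pol II) peaks were described in activated mouse CD4+ conventional T cells, together with the FoxP3 peaks found on and between them. A member was any peak of the Pol II list that belonged to a cluster of 4 or more Pol II peaks, where neighbours on a chromosome were joined across edge-to-edge gaps of at most 12.5 kb. By this rule 1414 of 17632 Pol II peaks were members, or 8.02% (95% interval 7.63 to 8.43), and they formed 308 clusters. Members were chosen by the positions of the Pol II peaks alone. Positions, widths and scores of Pol II peaks are therefore given as a description. Only their overlap with FoxP3 peaks, which the rule did not use, is compared. The rule itself was set with earlier results of these data known.

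Pol II is the enzyme that transcribes protein-coding genes. In chromatin immunoprecipitation with sequencing (ChIP-seq) it gives its sharpest signal near start sites, where it initiates and often pauses, and a broader one along genes that are being transcribed. In general, several neighbouring peaks can come from neighbouring genes, from several start sites of 1 gene or from a broad signal that the peak caller breaks up. FoxP3 is the forkhead transcription factor that marks regulatory T cells and that conventional T cells largely lack, so here it was introduced into them. GATA1 is a zinc-finger factor best known for its role in making red blood cells.

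All cells were labelled as primary CD4+ conventional T cells from lymph nodes of C57BL/6 mice aged 6 to 8 weeks, cultured with beads against CD3 and CD28 and with 20 U/ml of IL-2. FLAG-tagged FoxP3 was precipitated with anti-FLAG M2 from cells given FLAG-FoxP3 with GATA1 (9011 peaks) and from cells given FLAG-FoxP3 alone (5069 peaks). Pol II was precipitated with the N20 antibody from cells whose title and transduced factor name FLAG-FoxP3 and GATA1, although their description names activated CD4 cells only. A whole cell extract of cells with no transduced factor was the sequencing control, and by the naming of the lists all 3 were called over it. Each group had 1 library, so no difference could be set against a spread between replicates, and no test across samples was made. Intervals cover counting error over peaks only. The labelled cell type was not checked against marker genes, and no precipitation with anti-FLAG from cells lacking FLAG-FoxP3 was used here. Scores are the deposited scores of the peak caller, which rank peaks within a list but are not on 1 scale across lists.

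Most clusters were small. Of the 308 clusters, 211 held 4 peaks, 50 held 5, 28 held 6 and 9 held 7. Another 6 held 8 peaks, 1 held 9, 2 held 10 and 1 held 12. From the first base of the first peak to the last base of the last, clusters spanned 4269 to 66586 bp, with a median of 18895 bp (quartiles 12487 and 24312). Together the spans covered 6.02 Mb, or 0.234% of the 2571 Mb between the first and last peaks of the chromosomes. Pol II peaks filled a median of 17.3% of a cluster's span, with a range over clusters of 6.20% to 73.7%.

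Most neighbouring members stood well inside the limit of the rule. The 1106 gaps between them ran from 3 to 12444 bp with a median of 3703.5 bp (quartiles 1331 and 7189). Gaps were under 5 kb in 675 cases (61.0%), under 1 kb in 210 (19.0%) and under 100 bp in 29 (2.62%). The shortest gaps are shorter than the peaks themselves, whose median width was 628.5 bp. When Pol II peaks within 1 kb of each other were first merged, 913 peaks in 203 clusters were left.

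Members differed little from the rest of the list in Pol II score. Their median score was 112.43 (109.83 to 116.66), against 117.99 (116.79 to 119.11) for the 16218 other Pol II peaks. The highest decile of the list by score held 147 members (10.4%) and the lowest decile 168 (11.9%), where the other peaks had 9.97% and 9.83%. Members were slightly wider, with a median of 628.5 bp (616 to 645) against 606 bp (603 to 609). Within a cluster the peaks were uneven: the highest score was a median of 2.68 times the lowest.

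The cluster with the most peaks held 12, at 87546109 to 87578062 on chromosome 11. Its Pol II scores lay between 72.93 and 145.76, so none of its peaks was among the highest of the list. Its first Pol II peak (117.72) met FoxP3 alone (363.5), and a further peak of that list (325.39) lay in a gap near the far end. No peak of the FoxP3+GATA1 list lay in it.

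The clusters of 10 peaks were as poor in FoxP3. At 69792995 to 69838022 on chromosome 11 the Pol II scores ran from 63.04 to 141.71, and the only FoxP3 peak (FoxP3 alone, 336.48) lay in a gap. At 23611364 to 23677949 on chromosome 13, the longest cluster at 66586 bp, the highest Pol II peak (277.13) had no FoxP3 peak. There the only one, with GATA1 (166.55), lay on the fifth-ranked Pol II peak (114.23). The cluster of 9 at 154574926 to 154597352 on chromosome 4 held 1 FoxP3+GATA1 peak (219.14) that reached across the last pair of its Pol II peaks (148.77 and 110.55).

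The 6 clusters of 8 peaks lay on 6 chromosomes and differed in the same way. On chromosome 11 at 69208600 to 69231545, the highest Pol II peak (235.19) was in both FoxP3 lists, with 364.47 with GATA1 and 494.89 for FoxP3 alone. A lower peak of that cluster (111.25) was in the FoxP3 alone list (285.42). On chromosome 15 at 78725442 to 78767071, the highest Pol II peak (356.51) was likewise in both lists (166.24 and 591.16), and a peak of 78.27 was in the FoxP3 alone list (360.66). On chromosome 8 at 87323473 to 87381213, the highest Pol II peak (258.2) overlapped FoxP3 peaks of 169.02 and 963.01, and a peak of 116.33 overlapped a FoxP3 alone peak of 284.96. In these 3 clusters the peak shared with both FoxP3 lists was the strongest Pol II peak of the cluster.

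In the other clusters of 8 it was not, or there was none. On chromosome 10 at 79603690 to 79631353, Pol II peaks of 325.3, 266.14 and 211.14 had no FoxP3 peak, and the fourth (193.23) had one with GATA1 (340.31). On chromosome 17 at 31962849 to 32002509, the strongest Pol II peak (304.95) had none, and the next (167.41) was in both lists (387.04 and 595.87). A further FoxP3+GATA1 peak (152.24) of that cluster lay in a gap. The cluster on chromosome 6 at 47688838 to 47728782 stood apart in shape: its peaks were 976 to 5090 bp wide and covered 22001 of 39945 bp. Its scores ran from 51.23 to 338.7, and no FoxP3 peak of either list lay within it.

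**Figure D1:**
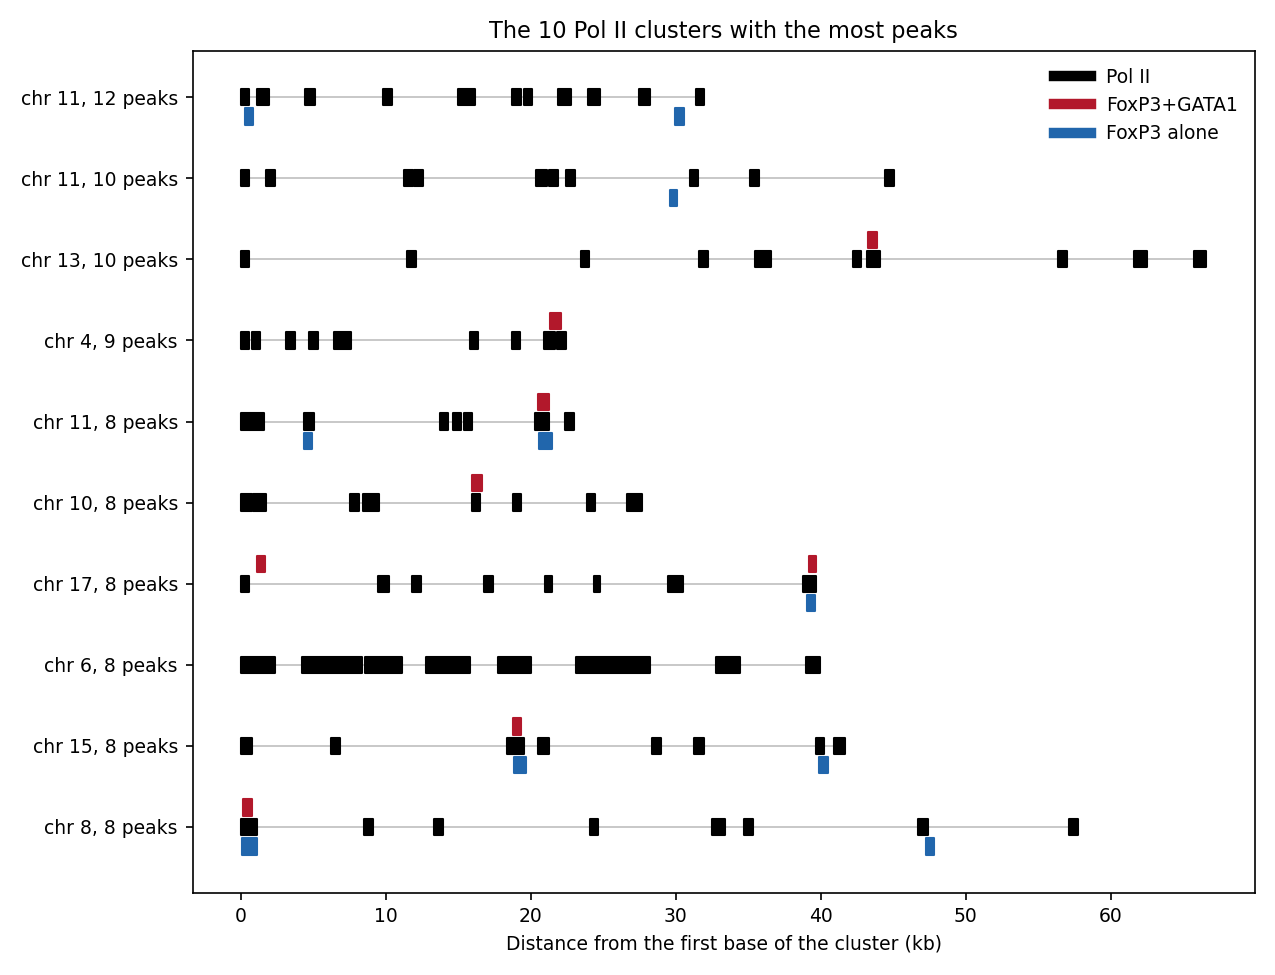
Layout of the 10 clusters with the most Pol II peaks, each drawn from its first base (x axis, kb) with Pol II peaks in black, FoxP3+GATA1 peaks in red above and FoxP3 alone peaks in blue below. Peaks are drawn to scale and the shortest gaps are not resolved. Each cluster holds at most 3 FoxP3 peaks, and the chromosome 6 cluster, where one Pol II peak is 5090 bp wide, holds none.

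Clustered Pol II peaks overlapped FoxP3 less often than the rest of the list. An overlap of at least 1 bp with the FoxP3+GATA1 list was found for 250 members, or 17.7% (15.8 to 19.8), where the share over all Pol II peaks was 25.5% and that of the other Pol II peaks 26.2% (25.5 to 26.9). With the FoxP3 alone list 166 members overlapped, or 11.7% (10.2 to 13.5), against 19.5% over all Pol II peaks and 20.2% (19.5 to 20.8) of the others. Both lists were met by 118 members (8.35%), against 14.4% over all and 14.96% of the others. At least 1 of the lists was met by 298 members (21.1%), against 30.5% over all and 31.4% of the others, which left 1116 members with no FoxP3 peak.

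The difference between members and other Pol II peaks was -8.49 percentage points for FoxP3+GATA1 (-10.5 to -6.31) and -8.42 points for FoxP3 alone (-10.1 to -6.53). Peaks of 1 cluster share their surroundings and are not independent. With each joined run of peaks taken as 1 unit the intervals were -10.9 to -6.04 and -10.5 to -6.38. Against the 11126 Pol II peaks that stood alone, with no neighbour inside 12.5 kb, the differences were -11.4 and -10.7 points. Both lists gave a lower share in members, but they share the extract control and are not independent of each other in that respect.

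The size of this difference rested on how clusters were drawn. With a largest gap of 5 kb, which left 437 members in 101 clusters, the FoxP3+GATA1 difference was -1.27 points (-5.11 to 3.01), an interval that includes 0, while FoxP3 alone gave -6.13 (-9.08 to -2.56). When clusters were rebuilt from Pol II peaks scoring 100 or more, leaving 307 members, FoxP3+GATA1 gave -3.58 (-8.45 to 1.80) and FoxP3 alone -5.95 (-10.1 to -1.06). Compared within deciles of Pol II score, these were -7.01 (-11.6 to -2.46) and -9.75 (-13.8 to -5.69). In that setting the shares of members with FoxP3 were 29.0% and 19.9%, below those of the other Pol II peaks scoring 100 or more. They are not comparable with shares over the whole list. With the FoxP3+GATA1 list cut to its highest-scoring peaks, as many as the FoxP3 alone list holds, the members' share was 11.3%. The difference from the other Pol II peaks was then -6.02 points (-7.68 to -4.17).

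A lower FoxP3 share was already present in pairs of Pol II peaks. The FoxP3+GATA1 list met 29.1% (28.2 to 29.9) of the Pol II peaks that stood alone, 20.3% (19.1 to 21.7) of the 3742 peaks in runs of 2 and 18.5% (16.5 to 20.7) of the 1350 in runs of 3. In clusters of 4 the share was 20.5% (17.9 to 23.4), which did not differ beyond these intervals from runs of 2 and 3. It was 13.6% (9.90 to 18.4) in clusters of 5, 15.2% (11.1 to 20.3) in clusters of 6 or 7, and 8.99% (4.63 to 16.7) in the 89 peaks of clusters of 8 or more. Below the lone peaks, most neighbouring sizes did not differ beyond their intervals. Clusters of 8 or more lay under runs of 2 and clusters of 4, also with each joined run as the unit (4.17 to 13.8 against 18.99 to 21.7 and 17.5 to 23.5). Clusters of 5 lay under runs of 2 by the intervals over peaks, but not with joined runs as units (8.18 to 19.02).

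For FoxP3 alone the shares were 22.5% (21.7 to 23.2) for lone peaks, 15.6% (14.5 to 16.8) in runs of 2 and 13.7% (11.97 to 15.6) in runs of 3. Clusters of 4, 5, 6 or 7, and 8 or more had 11.97%, 12.4%, 11.3% and 8.99%, with intervals that all overlapped. The step from lone peaks to pairs was therefore larger than any later step in this list too. The median Pol II score moved with run size: it was 120.58 for lone peaks, 113.005 in runs of 2, 117.515 in clusters of 4 and 105.26 in clusters of 8 or more.

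**Figure D2:**
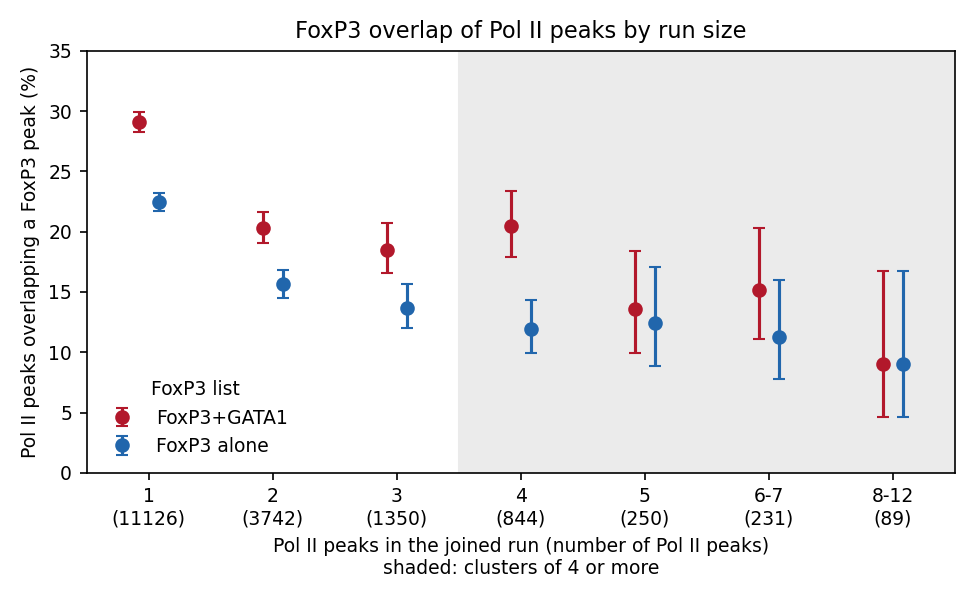
Share of Pol II peaks that overlap a FoxP3 peak (y axis, %) by the number of Pol II peaks in the joined run (x axis, number of peaks in brackets), for the FoxP3+GATA1 list in red and the FoxP3 alone list in blue, with Wilson 95% intervals as bars. Lone peaks have the highest shares, 29.1% and 22.5%, and clusters of 8 to 12 peaks have 8.99% in both lists.

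Pol II score is tied to FoxP3 overlap in the whole list, so members were compared with other Pol II peaks of the same score decile, numbered from 1 for the lowest scores to 10 for the highest. For FoxP3+GATA1 the members' share was lower in 9 of 10 deciles, and for FoxP3 alone in 10 of 10. In decile 1 the FoxP3+GATA1 list met 6.55% of members and 12.5% of other peaks, and the FoxP3 alone list 2.98% and 7.21%. In decile 9 the shares were 29.3% against 43.5% with GATA1 and 18.7% against 36.2% for FoxP3 alone. Averaged over deciles with the members' weights, the differences were -7.58 points (-9.50 to -5.67) and -7.70 points (-9.36 to -6.05). Here and below, intervals of matched differences take single peaks as the unit and not the joined run, so they may be too narrow. With 5 classes of score crossed with 5 of width as strata they were -5.78 (-7.70 to -3.86) and -6.56 (-8.24 to -4.88). With a largest gap of 5 kb the score-matched FoxP3+GATA1 difference was -3.49 (-7.07 to 0.0848), which includes 0.

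Decile 10 was the exception for FoxP3+GATA1, where 58.5% (50.4 to 66.2) of 147 members overlapped against 56.6% (54.2 to 59.0) of 1617 other peaks. For FoxP3 alone the members there had 43.5% (35.8 to 51.6) against 54.2% (51.8 to 56.7). Among these 147 members were 15 with scores of 3000 or more, in 4 clusters, and all 15 were in both FoxP3 lists. Without those 4 clusters the members of decile 10 had 53.8%, a difference of -2.86 points (-11.7 to 5.77), with GATA1 and 37.1%, or -17.1 points (-25.3 to -8.28), for FoxP3 alone. Strong clustered Pol II peaks were therefore not told apart from other strong Pol II peaks in the FoxP3+GATA1 list, while in the FoxP3 alone list they had the lower share.

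**Figure D3:**
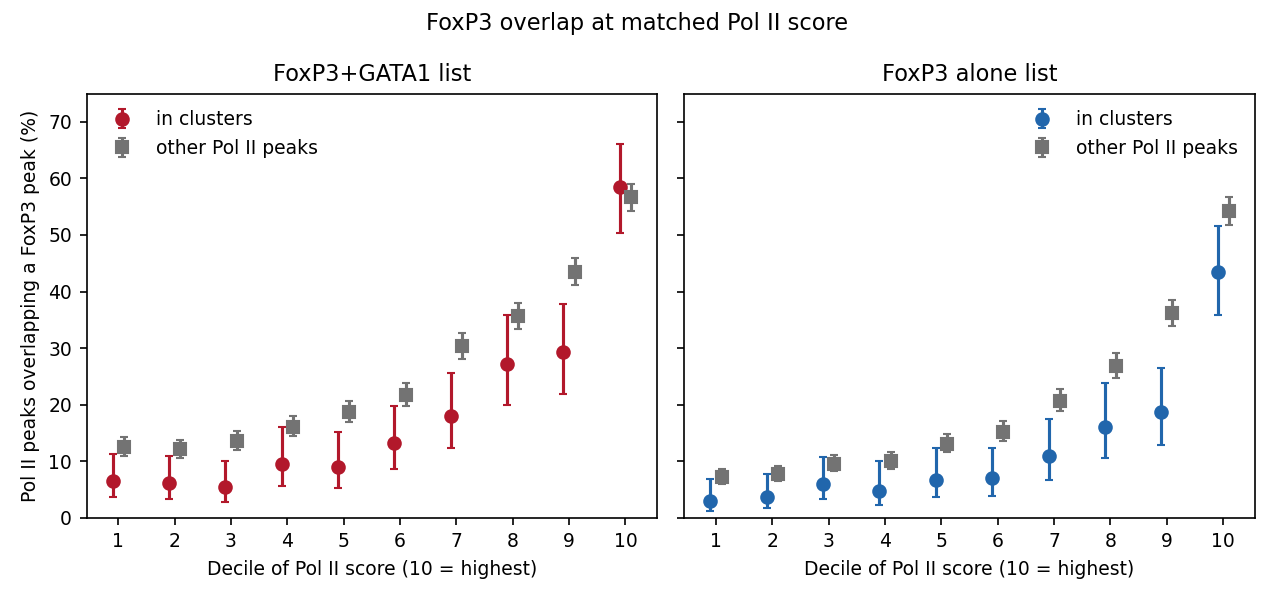
Share of Pol II peaks overlapping a FoxP3 peak (y axis, %) by decile of Pol II score (x axis, 10 is highest), for the FoxP3+GATA1 list (left) and the FoxP3 alone list (right), with members as coloured circles, other Pol II peaks as grey squares and Wilson 95% intervals as bars. Members lie under the other peaks in 9 of 10 deciles on the left, all but decile 10, and in 10 of 10 on the right.

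Within clusters, FoxP3 overlap was graded by the rank of the Pol II peak. The highest-scoring peak of each of the 308 clusters, with a median Pol II score of 210.5, overlapped a FoxP3+GATA1 peak in 33.4% of cases (28.4 to 38.9) and a FoxP3 alone peak in 26.6% (22.0 to 31.8). Second-ranked peaks had 20.8% (16.6 to 25.7) and 11.4% (8.29 to 15.4), and third-ranked peaks 13.0% and 6.49%. Fourth-ranked peaks had 9.74% and 5.52%, and the 182 peaks of rank 5 and lower 7.14% and 6.59%. The intervals of the first rank did not overlap those of any lower rank in either list, whereas those of rank 4 and of rank 5 and lower overlapped widely. Peaks tied at 3100 within a cluster were ranked by position.

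The highest peak of a cluster resembled a lone peak in its raw share and not in its matched one. Unmatched, its share exceeded that of lone Pol II peaks by 4.37 points with GATA1 (-0.733 to 9.88) and 4.16 points for FoxP3 alone (-0.530 to 9.42), intervals that include 0. At the same score decile it was lower, by -10.7 points (-15.8 to -5.58) and -11.5 points (-16.3 to -6.60). The remaining members gave -9.65 (-11.7 to -7.65) and -8.84 points (-10.5 to -7.20) in the same matched comparison. The lower share was thus not confined to the minor peaks of a cluster.

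**Figure D4:**
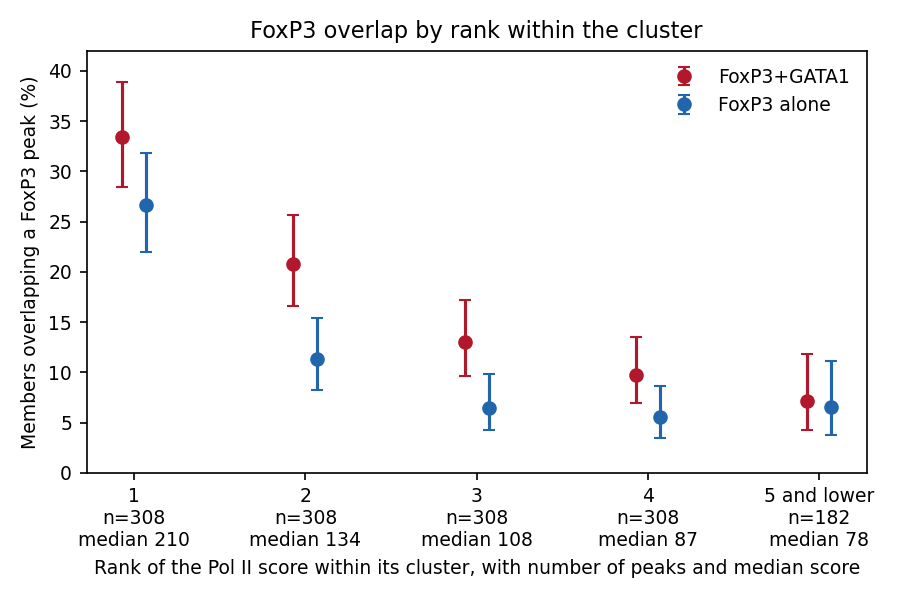
Share of members overlapping a FoxP3 peak (y axis, %) by rank of their Pol II score within the cluster (x axis, with the number of peaks and the median Pol II score), FoxP3+GATA1 in red and FoxP3 alone in blue, Wilson 95% intervals as bars. First-ranked peaks have 33.4% and 26.6%, and peaks of rank 5 and lower 7.14% and 6.59%.

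In raw shares, place within the cluster made a smaller difference than rank. Rank is the order of Pol II score, so its gradient was not set apart from score. The 616 peaks at either end of a cluster overlapped FoxP3+GATA1 in 20.1% and FoxP3 alone in 14.1% of cases, against 15.8% and 9.90% for the 798 inner peaks. At the same Pol II score decile the differences were 2.46 points (-1.34 to 6.27) and 2.58 points (-0.806 to 5.96), and both intervals include 0. End peaks also had the higher median Pol II score, 116.92 against 110.815. By distance to the nearest member, the FoxP3+GATA1 share was highest at 1 to 3 kb, with 23.3% (19.5 to 27.6) of 416 peaks. It was 17.2% (13.8 to 21.3) under 1 kb, 14.1% (10.7 to 18.4) at 3 to 6 kb and 14.2% (10.7 to 18.6) over 6 kb. The median Pol II score was also highest at 1 to 3 kb, at 121.76, and its part in this was not tested. The FoxP3 alone shares ran from 9.80% to 14.2% with overlapping intervals.

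Taken as units, most clusters carried FoxP3 on at least 1 of their Pol II peaks. A member met either FoxP3 list in 187 of 308 clusters, or 60.7% (55.2 to 66.0), the FoxP3+GATA1 list in 167 (54.2%), the FoxP3 alone list in 126 (40.9%) and both lists at the same peak in 96 (31.2%). By comparison, 42.2% (40.004 to 44.5) of runs of 2 and 49.1% (44.5 to 53.7) of runs of 3 had such a peak. More peaks give a run more places for an overlap, so the share per run can be higher where the share per peak is lower. Clusters of 4 had 60.2%, clusters of 5 had 56.0%, and 8 of the 10 clusters of 8 or more had one.

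Usually a single Pol II peak of the cluster was involved. With either list counted, 121 clusters (39.3%) had no overlapped member, 106 (34.4%) had 1, 59 (19.2%) had 2 and 22 (7.14%) had 3 or more, of which 5 had 4 or more. Where exactly 1 member was overlapped, it was the highest-scoring peak of its cluster in 57 of 106 cases (53.8%, 44.3 to 63.0). Highest-scoring peaks were 308 of the 1414 members. FoxP3 overlap rose with Pol II score over the whole list, so this share was not set apart from score. Members in both lists numbered 1 in 82 clusters, 2 in 11 and 4 or more in 3.

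FoxP3 peaks inside clusters lay on Pol II peaks and seldom between them. Within the 308 spans there were 252 FoxP3+GATA1 peaks, of which 240 overlapped a member and 12 lay in a gap on no Pol II peak. Those 12 were 4.76% of the peaks in the spans, where 50.3% of that whole list overlapped no Pol II peak. For FoxP3 alone 160 of 167 overlapped a member and 7 (4.19%) did not, against 32.5% of that list. A span is by construction rich in Pol II, so per length is the fairer scale. Gaps of clusters held 2.41 FoxP3+GATA1 peaks per Mb (exact Poisson interval 1.24 to 4.20), against 1.77 per Mb off Pol II peaks elsewhere. For FoxP3 alone they held 1.404 per Mb (0.564 to 2.89), against 0.643. Both intervals include the density elsewhere, so no difference was detectable with 12 and 7 peaks. The share in gaps depended on the largest gap allowed: at 25 kb it was 13.8% with GATA1 and 10.8% for FoxP3 alone, and at 5 kb 1.94% with GATA1.

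Per length of Pol II peak, clustered peaks carried fewer FoxP3 peaks. There were 231.8 FoxP3+GATA1 peaks per Mb of clustered Pol II peaks (203.4 to 263.0) and 378.4 per Mb of other Pol II peaks (367.1 to 390.0). For FoxP3 alone there were 154.5 (131.5 to 180.4) and 291.1 (281.2 to 301.2). FoxP3+GATA1 peaks had a median score of 245.4 (214.1 to 276.6) on members, 219.4 (216.0 to 223.9) on other Pol II peaks and 178.5 off Pol II peaks. In the FoxP3 alone list the medians were 430.9 (398.8 to 478.0), 455.0 (448.5 to 461.8) and 384.9. In both lists the intervals for members and other Pol II peaks overlapped, and both medians were above that of FoxP3 peaks off Pol II.

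Where members did overlap, the peaks were nearly centred on each other. From centre to centre, a member and its FoxP3+GATA1 peak were a median of 107 bp apart (91 to 132.5), against 87.5 bp (84.5 to 90.5) for other Pol II peaks. With FoxP3 alone it was 97.25 bp (76 to 122.5) against 85 bp (81.5 to 88). Members with no overlap had FoxP3 nearer than other such Pol II peaks. The rule itself places other Pol II peaks close to every member, and FoxP3 peaks were denser on Pol II peaks than off them, so this distance is not independent of the choice and is given as a description. Their nearest FoxP3+GATA1 peak lay a median of 21126 bp away, against 66555 bp, and within 10 kb for 30.0% against 9.55%. For FoxP3 alone the medians were 54057 and 113958 bp, and 22.5% against 6.07% lay within 10 kb.

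Members that carried FoxP3 were more often in the FoxP3+GATA1 list only. Of the 298 overlapped members, 132 (44.3%) were in that list only, 48 (16.1%) in the FoxP3 alone list only and 118 (39.6%) in both. Of 5088 overlapped other Pol II peaks, 35.8% were in the FoxP3+GATA1 list only, 16.6% in the FoxP3 alone list only and 47.7% in both. The share in the FoxP3+GATA1 list only was 8.54 points higher in members (2.86 to 14.4, or 2.13 to 14.96 with each joined run as the unit). It was 9.58 points higher at equal list length and 10.7 points higher without the 4 clusters that hold a score of 3000 or more. In clusters of 4, 101 of 198 overlapped members were in the FoxP3 alone list, and the rest in the FoxP3+GATA1 list only. That count was 31 of 46 in clusters of 5, 26 of 42 in clusters of 6 or 7 and 8 of 12 in clusters of 8 or more. The higher share thus came from clusters of 4 and was not seen over the larger clusters together. It was not matched on Pol II score. A site called in 1 list only may lie just under the threshold of the other, and the depth of neither library is known.

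The 3 clusters with the most members in both FoxP3 lists were also among those with the highest Pol II scores. On chromosome 1, at 170113099 to 170139898, all 5 Pol II peaks scored 3100 and all 5 overlapped FoxP3 peaks of 3100 in both lists. On chromosome 15, at 103135352 to 103165006, 5 of 6 Pol II peaks scored 3100 and overlapped FoxP3 peaks of 3100 in both lists, and the sixth (190.03) overlapped none. On chromosome X, at 7163037 to 7195260, 4 of 6 Pol II peaks scored 3100 with FoxP3 at 3100 in both lists, while a peak of 137.8 met FoxP3+GATA1 only (163.62) and one of 157.04 met none. On chromosome 9, at 43836372 to 43855958, the last peak scored 3100 and was in both lists at 3100, and the other 3 (116.99, 124.09 and 118.05) were in neither. On chromosomes 15, X and 9 the highest scores that each list had within the cluster thus fell on the same Pol II peaks, and the remaining Pol II peaks of these clusters scored 116.99 to 190.03.

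Those 4 clusters hold all 15 members that scored 3000 or more, out of 24 such peaks in the whole Pol II list, of which 21 were in each FoxP3 list. All 15 tie at 3100, a value whose meaning no label or header explains. The genes there were not analysed, and whether the signal comes from the cells' own chromatin was not tested. Without the 4 clusters, 16.8% of members overlapped FoxP3+GATA1 and 10.8% FoxP3 alone, and the differences from other Pol II peaks were -9.38 (-11.4 to -7.22) and -9.32 points (-10.97 to -7.47). The lower share of the members was thus as large without them.

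Of the 11 clusters with 2 members in both FoxP3 lists, clusters of 4 peaks on chromosomes 5 and 8 were named. The tie was broken by share of members, then by shorter span. On chromosome 5, at 110329219 to 110336854, the 4 Pol II scores were 345.13, 135.74, 379.04 and 1602.52 in order of position, all but 135.74 in decile 10 of the list. The first overlapped FoxP3 peaks of 648.63 with GATA1 and 331.55 alone, and the last FoxP3 peaks of 1514.5 and 776.33. The weakest met FoxP3+GATA1 only (210.59), and the peak of 379.04, second in rank, met none. On chromosome 8, at 108577914 to 108584183, the Pol II scores were 123.21, 74.35, 55.58 and 213.25. There the peaks of 74.35 and 213.25 were in both FoxP3 lists, at 162.84 and 204.78 with GATA1 and 491.2 and 343.2 alone. The Pol II peak of 123.21 was in neither, so FoxP3 did not follow the order of Pol II scores in these clusters.

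**Figure D5:**
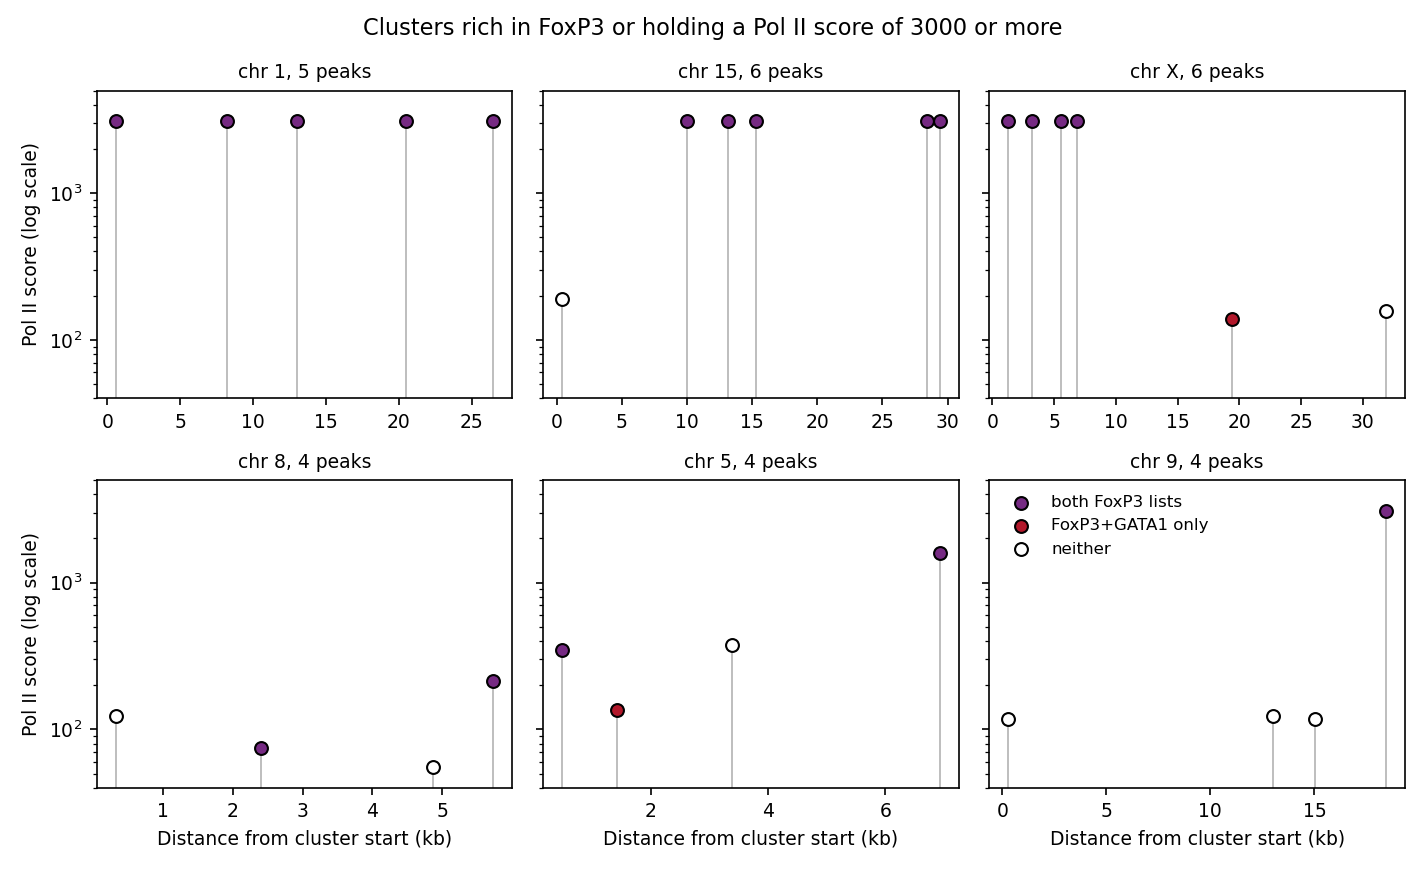
Pol II score (y axis, log scale) against distance from the cluster start (x axis, kb) for the peaks of the 5 clusters with the most members in both FoxP3 lists and of the chromosome 9 cluster, filled purple where in both FoxP3 lists, red in FoxP3+GATA1 only and white in neither. All 15 points at 3100 are purple, and the peaks of lower score beside them are white or red. Ties in members in both lists were broken by share of members, then by shorter span.

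Of the clusters with no FoxP3 peak of either list in their span, the largest after the chromosome 6 cluster held 7 Pol II peaks each. These lay at 78307200 to 78334236 on chromosome 15 (Pol II scores 56.24 to 196.52), at 100559292 to 100600148 on chromosome 11 (75.93 to 169.13) and at 80039534 to 80086494 on chromosome 10 (59.72 to 368.65). A cluster of 6 followed at 65194251 to 65204076 on chromosome 5 (60.16 to 126.81). The strongest peak of the chromosome 10 cluster (368.65) stood in decile 10 of the list. These clusters were picked for their lack of FoxP3, so its absence there is no result. Over all members in decile 10, 58.5% overlapped FoxP3+GATA1 and 43.5% FoxP3 alone.

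The chromosome 5 cluster without FoxP3 was also among the most tightly packed. Ties in number of peaks were broken by shorter span when it was picked, so its packing there is no result either. Among clusters of 6 or more peaks, the shortest mean gaps were 1224 bp at 32342094 to 32352525 on chromosome 2 and 1234 bp in this one. Mean gaps of 1690 bp, 1930 bp and 2023 bp followed in clusters of 6 on chromosome 18, on chromosome 17 at 35367909 to 35381604 and on chromosome 10 at 80742365 to 80756497. None of these 5 held a FoxP3 alone peak, where 182 of all 308 clusters (59.1%) had no member in that list. With GATA1, the strongest Pol II peak of the chromosome 2 cluster (152.03) met a FoxP3 peak of 157.64. In the chromosome 17 cluster the strongest peak (313.81) and a weak one (71.25) met FoxP3+GATA1 peaks of 154.34 and 271.42. The chromosome 18 cluster had a single FoxP3+GATA1 peak (121.73), on its weakest Pol II peak (92.4).

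Clusters were unevenly spread over chromosomes. Chromosome 11 held 232 members in 46 clusters, or 16.4% of all members, and 15.5% (13.7 to 17.4) of its 1499 Pol II peaks were members. The shares were 10.99% on chromosome 19, 10.95% on chromosome 17 and 10.1% on chromosome 10, against 3.63% (2.67 to 4.92) on chromosome 1 and 3.27% (1.78 to 5.91) on chromosome X. Chromosome Y had 4 Pol II peaks and no member. Clusters themselves were sometimes neighbours: for 25 of 288 the next cluster on the chromosome began within 100 kb, and for 76 within 500 kb.

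The lower FoxP3 share was found on most chromosomes. On the 19 chromosomes with at least 20 members, members overlapped FoxP3+GATA1 less often than the other Pol II peaks of the same chromosome on 19, and FoxP3 alone on 18. On chromosome 11, with the most members, the shares were 13.4% against 18.6% with GATA1 and 12.1% against 15.9% for FoxP3 alone. Among these 19, chromosome 1 was the exception for FoxP3 alone, with 28.2% of 39 members against 19.7% of other peaks. Without its cluster of peaks at 3100, the share on chromosome 1 was 6 of 34 members, or 17.6% (8.35 to 33.5). Chromosome X, with 10 members, was outside this count. There 7 of the 10 members overlapped FoxP3+GATA1 and 5 FoxP3 alone, of which 5 and 4 belonged to the cluster with peaks at 3100.

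At the edge of the rule the values ran on without a break. The widest gaps that still joined a cluster were 12444 bp on chromosome 6 (120412769 to 120443929), 12426 bp on chromosome 19 (3753839 to 3769310) and 12389 bp on chromosome 9 (107514742 to 107537867). Each of these 3 clusters had 1 member with FoxP3, in both lists on chromosome 9 and with GATA1 only in the other two. Runs that would have made 4 peaks missed by gaps of 12514 bp on chromosome 8 and of 12522 and 12557 bp on chromosome 7. By size, the 450 runs of 3 peaks stood just outside and the 211 clusters of 4 just inside.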

How the data were processed

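MACS 1.4.0rc2, Bowtie and FastQC are named in the submitters' processing notes, with build mm8 and without roles or settings. For each precipitated library the authors deposited a peak list with a score per peak, the lowest being 50.02 for Pol II, 70.56 for FoxP3+GATA1 and 70.75 for FoxP3 alone. Read filters are not given in those notes, and the lists hold no counts, so depth is unknown. Positions are printed from a first base of 1, so each printed start is the deposited start plus 1. They were not converted to another build. The build is uncertain, since a peak on chromosome 7 ends at 152430305, past that chromosome's end in mm8 as generally known. Gene annotation and sequence were therefore not used.

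Peaks were joined and overlapped in Python 3.11.15 (numpy 2.4.6, pandas 2.3.3, scipy 1.17.1), with overlaps checked against bedtools 2.31.1 and the code tested on simulated data. Shares carry Wilson 95% intervals and differences Newcombe intervals. Further intervals took each joined run as the unit. Matched differences were weighted over score deciles, with intervals over single peaks. Median intervals are order-statistic and density intervals exact Poisson. Alternatives varied the gap, the cluster size, the score minimum, the overlap definition, list length, merging and the clusters left out. Members, lists and named regions were chosen with earlier results of these data known. Named regions are the 10 clusters with the most peaks, and 5 each by shortest mean gap (6 or more peaks), most members in both FoxP3 lists and most peaks without FoxP3. Ties in number of peaks were broken by shorter span. Ties in members in both lists were broken by share of members, then by shorter span. Clusters holding a score of 3000 or more and 3 on each side of the gap limit were added.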

Additional observations from a re-analysis of the deposited data

How the results depend on the processing

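No paired analysis was possible because only 1 library stands for each group. Of 178 values recomputed under alternatives, 129 stayed close to the reported value, 49 moved beyond its interval or, for counts, by more than a set ratio, and 0 reversed. The differences between members and other Pol II peaks were below 0 in 15 of 15 alternatives for both lists, matched or not. Whole intervals lay below 0 in 15 of 15 for FoxP3 alone. For FoxP3+GATA1 they did so in 13 of 15 unmatched and 14 of 15 matched. Cutting the FoxP3+GATA1 list could not change the FoxP3 alone differences. Standardising over score and width, comparing with lone peaks, merging within 1 kb, and leaving out chromosome 11 or the clusters with a score of 3000 or more were chosen after seeing the data. Beyond what each setting itself changes, the cause was not tested.

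With a largest gap of 5 kb there were 437 members in 101 clusters, with a median Pol II score of 124.14. They overlapped FoxP3+GATA1 in 24.3% and both lists in 10.1%. The FoxP3+GATA1 difference was -1.27 points, or -3.49 at matched score, and that for FoxP3 alone -6.13. Of clusters 70.3% had FoxP3 on a member, and 1.94% of FoxP3+GATA1 peaks in spans were off Pol II. With 25 kb there were 3332 members in 627 clusters. The FoxP3+GATA1 difference was -11.3 points, or -9.73 matched, and 13.8% and 10.8% of FoxP3 peaks in spans (FoxP3+GATA1 and FoxP3 alone) were off Pol II.

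With at least 3 peaks there were 2764 members in 758 clusters, 53.8% of them with FoxP3. With at least 6 there were 320 in 47, 68.1% with FoxP3, and a median score of 104.92. The latter overlapped FoxP3+GATA1 in 13.4%, a difference of -12.3 points, and 2.5% and 8.57% of FoxP3 peaks in spans were off Pol II.

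Rebuilt from Pol II peaks scoring 100 or more, 307 members in 72 clusters had a median score of 162.5. They overlapped FoxP3+GATA1 in 29.0%, FoxP3 alone in 19.9% and both in 14.3%, and 77.8% of clusters had FoxP3. The differences from the other Pol II peaks scoring 100 or more were -3.58 and -5.95 points, and -7.01 and -9.75 at matched score. In spans, 2.22% and 1.64% of FoxP3 peaks were off Pol II. Merging Pol II peaks within 1 kb left 913 members in 203 clusters. The differences were then -9.07 (-11.5 to -6.37) points for FoxP3+GATA1 and -8.88 (-10.9 to -6.54) for FoxP3 alone. At matched score they were -7.83 and -7.76.

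With as many FoxP3+GATA1 peaks as the FoxP3 alone list holds, members overlapped in 11.3% and both lists in 5.87%, the differences were -6.02 and, matched, -5.18, and 52.9% of clusters had FoxP3. Against lone Pol II peaks the differences were -11.4 and -10.7 points. With 50% of the shorter peak required, 8.98% of FoxP3 alone peaks in spans were off Pol II.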
